A study of Mus musculus with 8 samples.

Results

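The guanylate-binding proteins (GBPs) are large GTPases, and the genes described here are the 10 whose symbols in the deposited tables were Gbp2, Gbp2b, Gbp3, Gbp4, Gbp5, Gbp6, Gbp7, Gbp8, Gbp9 and Gbp10. They are 10 of the 21051 genes listed, and all 10 were among the 12412 genes tested. Tumor-associated macrophages (TAMs) were sorted as CD45+F4/80+ cells from subcutaneous B16 melanomas on day 14 after injection, in 4 WT mice (TAM-WT) and 4 Colec11-/- mice (TAM-KO). B16, a melanin-producing mouse melanoma line, comes from the C57BL/6 strain, and Colec11 encodes the collectin CL-11, a soluble pattern recognition molecule. All hosts had this background too and were young adult males per the study's methods. WT littermates were the controls, and the Colec11 mutation was carried in every cell of the TAM-KO mice rather than in macrophages alone. The comparison asks how the macrophage RNA differed with the host's Colec11 genotype.

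GBPs are among the genes most strongly induced by interferon gamma, which reaches the nucleus through the interferon gamma receptor, JAK kinases and STAT dimers that bind GAS sequences, while IRF factors bind ISRE sequences. The proteins bind and hydrolyse GTP, assemble on the membranes of vacuoles that hold parasites or bacteria and on bacterial surfaces, and promote inflammasome activation in macrophages. Some members, among them Gbp2, Gbp2b and Gbp5, end in a CAAX motif whose cysteine is prenylated and anchors them in membranes. Mouse GBP genes lie in 2 clusters. Gbp2b was formerly named Gbp1.

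In GRCm38.p6, 5 members lay on the plus strand of chromosome 3 between 142496934 and 142638008, in the order Gbp5, Gbp7, Gbp3, Gbp2b and Gbp2. The other 5 lay on the minus strand of chromosome 5 between 105012513 and 105295871, in the order Gbp8, Gbp9, Gbp4, Gbp10 and Gbp6. Coding sequences of the members, from the longest complete GENCODE M21 transcript of each, ran from 1575 bases for Gbp8 to 1914 for Gbp7. Translated, members of the same chromosome shared from 43.2% to 97.7% of aligned residues over 20 pairs, and members of different chromosomes from 39.6% to 64.7% over 25 pairs. Gbp6 and Gbp10 were the closest pair, with 98.4% identity of the coding bases. Gbp6 and Gbp9 followed at 89.6%, and Gbp2 and Gbp2b shared 82.5%. Reads of such pairs can be split by the estimation of RSEM, and the deposited counts of Gbp6 and Gbp10 were not whole in 7 of 8 libraries each, so the division of reads between those 2 genes is uncertain.

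Promoter windows, 250 bases before and 50 bases after the annotated start, were found in the RefSeq table of GRCm38.p6 for 5 members, all on chromosome 3, with 6 windows because Gbp3 had 2 starts. Gbp4, Gbp6, Gbp8, Gbp9 and Gbp10 had none in that table. The GAS was searched as TTCNNNGAA, with N for any base, and the ISRE as GAAA, any 2 bases and GAAA again, both on either strand. An ISRE match was present in 5 of 6 windows, 1 window for each gene, against 3.44% of 32851 promoters of the same length. A GAS match was present in 2 of 6 windows, those of Gbp5 and Gbp7, against 8.30% of all promoters. The 60 bases around the ISRE of each gene are shown because this match was shared by the 5 genes, on the plus strand and with the ISRE in capitals, where it reads as its reverse complement. They lie at chr3:142496744-142496803, chr3:142530258-142530317, chr3:142559974-142560033, chr3:142594685-142594744 and chr3:142620579-142620638.
Gbp5: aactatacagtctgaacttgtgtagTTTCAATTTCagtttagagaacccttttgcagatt
Gbp7: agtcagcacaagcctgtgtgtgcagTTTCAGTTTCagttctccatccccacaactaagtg
Gbp3: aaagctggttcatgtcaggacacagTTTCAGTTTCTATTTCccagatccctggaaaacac
Gbp2b: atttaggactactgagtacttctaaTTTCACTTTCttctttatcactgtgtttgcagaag
Gbp2: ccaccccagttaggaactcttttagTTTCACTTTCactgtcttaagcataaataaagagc
The matches began 165 bases before the start in Gbp5, 53 in Gbp7, 45 in Gbp3, 137 in Gbp2b and 59 in Gbp2. In Gbp3, 2 ISRE matches overlapped, so its capitals run further. The Gbp7 promoter is shown over the 250 bases before its start, at chr3:142530086-142530335, because it held both kinds of match. Its capitals mark 2 GAS matches, beginning 106 and 87 bases before the start, and then the ISRE.
Gbp7: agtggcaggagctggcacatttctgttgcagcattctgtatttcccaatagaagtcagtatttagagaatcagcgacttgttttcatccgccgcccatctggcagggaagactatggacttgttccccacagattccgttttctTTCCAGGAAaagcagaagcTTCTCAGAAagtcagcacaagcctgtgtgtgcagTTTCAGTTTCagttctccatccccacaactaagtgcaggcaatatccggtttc
Both GAS matches of Gbp7 and the ISRE lay within 106 bases of the start, whereas the GAS matches of Gbp5 began 245 and 52 bases before it. A match is a description of letters and was not tested for binding.

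Each of the 10 GBP genes had a higher mean in TAM-KO than in TAM-WT. Values are FPKM, which scale fragments to gene length and to the size of the library and so compare genes per length. The summed FPKM of the 10 genes was 112, 19.3, 33.2 and 57.4 in the TAM-WT libraries, here and throughout in the order of replicates 1 to 4, and 123, 256, 274 and 136 in the TAM-KO libraries. The group means of this sum were 55.6 ± 40.9 (SD, n = 4) and 197 ± 79.0 (SD, n = 4). The 4 TAM-KO libraries thus lay above all TAM-WT libraries in the sum, but TAM-WT replicate 1 stood close to TAM-KO replicate 1.

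**Figure D1:**
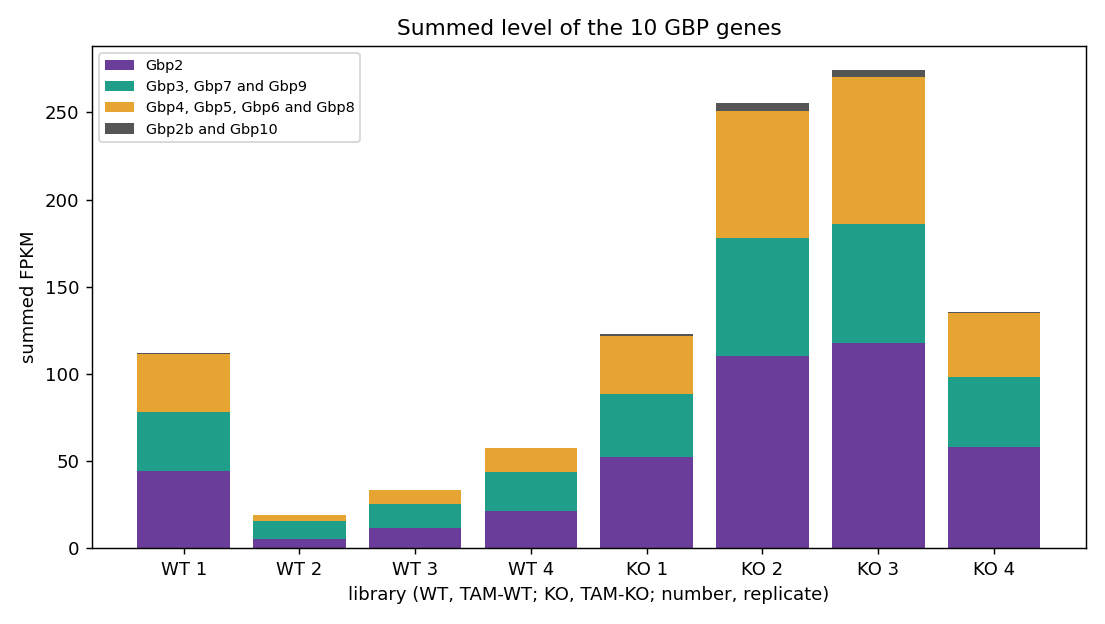
Summed FPKM of the 10 GBP genes in each of the 8 libraries (bars, linear axis from 0), divided into Gbp2, the group Gbp3, Gbp7 and Gbp9, the group Gbp4, Gbp5, Gbp6 and Gbp8, and the pair Gbp2b and Gbp10. The sum ran from 19.3 in TAM-WT replicate 2 to 274 in TAM-KO replicate 3, and TAM-WT replicate 1 reached 112.

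The test was edgeR's quasi-likelihood test on the rounded expected counts of all genes, with Benjamini-Hochberg adjustment over the 12412 genes, and a gene passed at an adjusted p of at most 0.05. Of the 10 members, 4 passed as higher in TAM-KO, against 4.58% of all genes tested. These were Gbp3, Gbp7, Gbp9 and Gbp10. Gbp10 and Gbp2b, scarce in TAM-WT, passed the filter on low counts mainly through the TAM-KO libraries, so their presence among the tested genes is not independent of their direction; of the other 8 members, 3 passed. Each of the 4 also had at least a 2-fold change, a pair of criteria that 1.41% of all genes met in this direction. The other 6 members had adjusted p values from 0.0559 to 0.121 with fitted changes that were also at least 2-fold, and all 10 had an unadjusted p of at most 0.05, against 14.9% of all genes in this direction. The median log2 fold change over the 10 members was 1.85, with a range from 1.07 to 4.10, beside a median of 0.002 over all genes tested. It was 1.58 for the 5 members on chromosome 3 and 2.30 for the 5 on chromosome 5, with 2 passing in each cluster. Without overlap between the groups, every TAM-KO value above every TAM-WT value, were 7 of the 10 members, against 13.5% of all genes tested. The 2 figures are not quite alike. Genes without any TAM-KO replicate 1 value were judged on the other TAM-KO libraries alone. For Gbp2 and Gbp6 that value came from the authors' list of differentially expressed genes.

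The number that passed depended on single libraries, among all genes as well as among the members. Without TAM-WT replicate 1, all 10 members passed, with adjusted p values from 0.0133 to 0.0283, and 4.31% of all genes passed as higher. With edgeR, 0 of 10 passed when the library left out was replicate 3 or 4 of TAM-WT, or replicate 2 or 3 of TAM-KO, though 9 of 10 had an unadjusted p of at most 0.05 in each of these 4 fits. In the same fits 0.416%, 1.4%, 0.184% and 0.2% of all genes passed as higher, so calls were lost across all genes and not among the GBPs alone. In the remaining fits 7 passed without TAM-WT replicate 2 (11.6% of all genes), 1 passed without TAM-KO replicate 1 (2.5% of all genes) and 3 passed without TAM-KO replicate 4 (3.76% of all genes). The 7 included Gbp10, the 1 was Gbp10, and the 3 were Gbp2b, Gbp3 and Gbp10. Gbp10 and Gbp2b entered the test mainly through the TAM-KO libraries, so their calls carry that limit here too. The fitted change was toward TAM-KO for all 10 genes in each of these fits.

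**Figure D2:**
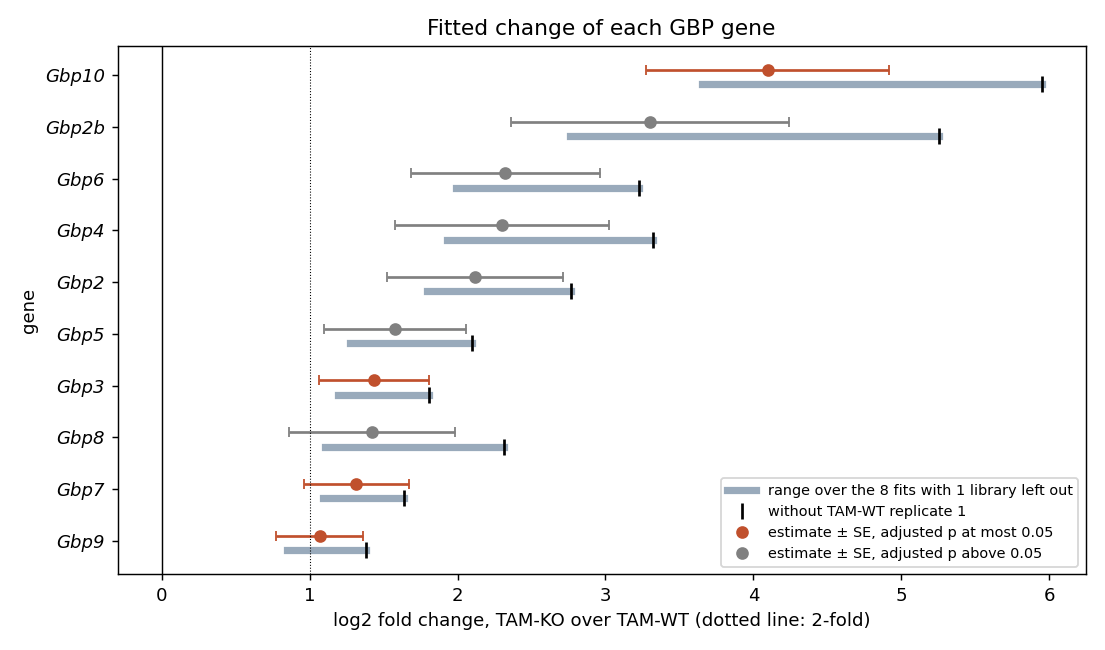
Log2 fold change of each GBP gene, TAM-KO over TAM-WT, from edgeR (points, ± SE, orange where the adjusted p was at most 0.05), with the range over the 8 fits that left out 1 library (blue bars) and the fit without TAM-WT replicate 1 (black ticks). All estimates lie above 1, the upper end of each range is the fit without TAM-WT replicate 1, and Gbp10 and Gbp2b have the widest ranges.

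Gbp2, a prenylated GBP that coats parasite vacuoles in interferon-activated macrophages, was the most abundant member per length in all 8 libraries. Its FPKM was 44.1, 5.23, 11.5 and 21.2 in TAM-WT and 52.4, 110.5, 118 and 58.3 in TAM-KO. The groups did not overlap, but TAM-WT replicate 1 was 3.49 times the mean of the other 3 TAM-WT libraries and lay just under the lowest TAM-KO library. Gbp2 had a log2 fold change of 2.12 ± 0.60 (SE), which did not pass (edgeR adjusted p = 0.0587). The table of TAM-KO replicate 1 lacks Gbp2, so this fit used 7 libraries. The FPKM of that library came from the table of the whole series, the authors' list of differentially expressed genes. With that library filled in, the edgeR adjusted p was 0.0600, and over the 10 alternatives that left out no library it ran from 0.00945 to 0.0605.

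Among the members close to Gbp2 in the genome, Gbp3 passed. Its FPKM was 12.5, 3.47, 4.81 and 7.99 in TAM-WT and 14.0, 27.7, 27.3 and 14.9 in TAM-KO. The log2 fold change was 1.44 ± 0.37 (SE, edgeR adjusted p = 0.0429). Gbp7, known for a part in assembling the NADPH oxidase on phagosomes, had 10.2, 3.26, 4.28 and 7.04 FPKM in the TAM-WT libraries and 10.5, 20.8, 23.5 and 12.01 in the TAM-KO libraries. Its change was 1.32 ± 0.36 on the log2 scale (SE, edgeR adjusted p = 0.0469). In both genes TAM-WT replicate 1 came just below TAM-KO replicate 1, so the groups were separated by a small gap, with the lowest TAM-KO value 1.12 times the highest TAM-WT value for Gbp3 and 1.02 times for Gbp7.

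Gbp5, a prenylated member that promotes NLRP3 inflammasome assembly, had 9.44, 1.55, 2.58 and 5.72 FPKM in the TAM-WT libraries and 9.71, 18.1, 23.4 and 10.8 in the TAM-KO libraries. These values did not overlap, with a log2 fold change of 1.58 ± 0.48 (SE) that did not pass (edgeR adjusted p = 0.0626). Gbp2b was scarce. Its FPKM was 0.72, 0, 0.08 and 0.11 in TAM-WT and 0.52, 3.36, 2.34 and 0.48 in TAM-KO. These rest on 27, 0, 2 and 4 expected counts in TAM-WT and 20, 141, 97 and 21 in TAM-KO. TAM-WT replicate 1 exceeded TAM-KO replicates 1 and 4, so the groups overlapped, and the log2 fold change of 3.30 ± 0.94 (SE, 7 libraries) did not pass (edgeR adjusted p = 0.0610).

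On chromosome 5, Gbp9 passed with the smallest change of the 10 members. It had 11.01, 3.57, 4.99 and 7.46 FPKM in TAM-WT and 11.5, 18.9, 17.5 and 13.0 in TAM-KO, without overlap. The log2 fold change was 1.07 ± 0.29 (SE, edgeR adjusted p = 0.0488). Gbp10 was the least abundant member and had the largest fitted change, 4.10 ± 0.82 on the log2 scale (SE, edgeR adjusted p = 0.0236). Its expected counts were 9.11, 0, 1.44 and 1.18 in TAM-WT and 27.5, 69.2, 94.1 and 17.1 in TAM-KO. With so few TAM-WT reads the size of the change depends on the prior count of the fit, and Gbp10 passed the filter on low counts through the TAM-KO libraries. Under a filter of at least 10 counts in every sample, Gbp10 and Gbp2b were not tested and 2 of the remaining 8 members, Gbp3 and Gbp7, passed, against 4.17% of all genes.

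Gbp6, the closest relative of Gbp10, was the second most abundant member by the TAM-KO mean. It had 11.2, 1.11, 2.15 and 3.82 FPKM in the TAM-WT libraries and 12.01, 28.5, 30.2 and 14.9 in the TAM-KO libraries. The groups were separated by little, the lowest TAM-KO value being 1.07 times the highest TAM-WT value, and the log2 fold change of 2.32 ± 0.64 (SE, 7 libraries) did not pass (edgeR adjusted p = 0.0559). When the reads of Gbp6 and Gbp10 were added, which removes the question of how RSEM divided them, the log2 ratio of mean CPM, counts scaled to the library total, over 7 libraries was 2.37, beside 2.33 for Gbp6 alone, given with no test.

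Gbp4 and Gbp8 were the members on this chromosome whose groups overlapped. Gbp4 had 7.01, 0.40, 1.36 and 2.14 FPKM in TAM-WT and 7.35, 16.5, 20.1 and 6.95 in TAM-KO. TAM-WT replicate 1 was just above TAM-KO replicate 4, and the log2 fold change of 2.30 ± 0.73 (SE, 7 libraries) did not pass (edgeR adjusted p = 0.0767). Gbp8 had 5.79, 0.74, 1.47 and 1.92 FPKM in TAM-WT and 4.47, 10.1, 10.7 and 3.85 in TAM-KO. Here TAM-WT replicate 1 exceeded both TAM-KO replicate 1 and TAM-KO replicate 4, and the log2 fold change of 1.42 ± 0.56 (SE) had the highest adjusted p of the family (edgeR, 0.121).

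**Figure D3:**
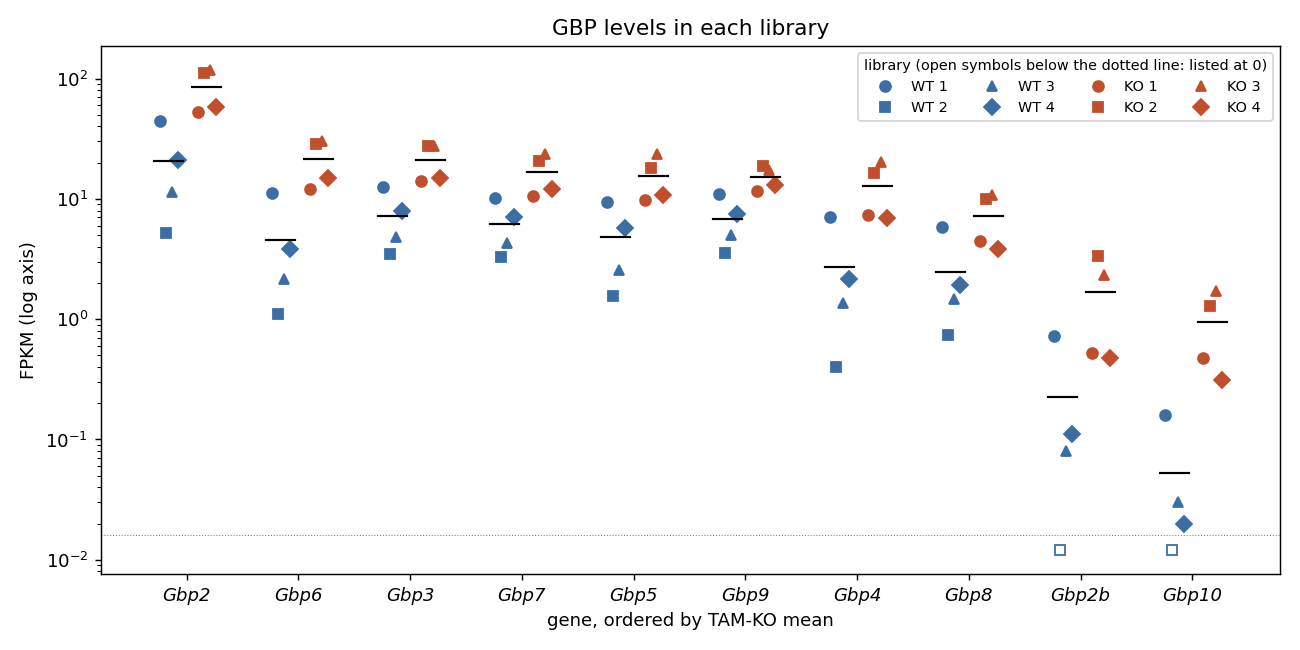
FPKM (log axis) of each GBP gene in the 4 TAM-WT libraries (blue) and the 4 TAM-KO libraries (orange), 1 symbol per replicate, with black bars at the group means and open symbols for a gene listed at 0. The symbols keep nearly the same order within every gene, with TAM-WT replicate 2 lowest in 10 of 10 genes and TAM-KO replicates 2 and 3 highest in 10 of 10.

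By the TAM-WT mean FPKM the members stood in the order Gbp2, Gbp3, Gbp9, Gbp7, Gbp5, Gbp6, Gbp4, Gbp8, Gbp2b and Gbp10, from 20.5 ± 17.1 (SD, n = 4) for Gbp2 to 0.0525 ± 0.0727 for Gbp10. By the TAM-KO mean the order was Gbp2, Gbp6, Gbp3, Gbp7, Gbp5, Gbp9, Gbp4, Gbp8, Gbp2b and Gbp10, from 84.8 ± 34.2 (SD, n = 4) to 0.948 ± 0.664. Gbp6 thus stood sixth among TAM-WT and second among TAM-KO. Of the neighbours in these orders, Gbp8 and Gbp2b did not overlap in either group, nor did Gbp2 and Gbp6 in TAM-KO, and all other neighbours overlapped. Within libraries, Gbp3 exceeded Gbp9 in 2 of 4 TAM-WT libraries and Gbp4 exceeded Gbp8 in 2 of 4, so these neighbours had no fixed order in TAM-WT. In TAM-KO, Gbp5 stood above Gbp9 by the mean but exceeded it in 1 of 4 libraries.

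The make-up of the summed GBP level differed between libraries. Gbp2 made up 27.1% of it in TAM-WT replicate 2 and from 42.6% to 43.2% in the TAM-KO libraries. Gbp3, Gbp7 and Gbp9 together made up 53.3% in TAM-WT replicate 2, 42.4% and 39.2% in TAM-WT replicates 3 and 4, 30.1% in TAM-WT replicate 1, and from 24.8% to 29.5% in TAM-KO. These 3 genes also had the smallest spread among libraries, the highest value being from 5.29 times (Gbp9) to 7.99 times (Gbp3) the lowest, against 50.2 times for Gbp4 and 22.6 times for Gbp2. The share of the 5 members on chromosome 5 stayed between 26.7% and 31.4% in all 8 libraries.

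The 8 libraries took nearly the same order in every member. TAM-WT replicate 2 was the lowest of 8 in 10 of 10 members, and TAM-WT replicate 1 was the highest TAM-WT library in 10 of 10. The order of TAM-WT replicates 2, 3, 4 and 1, from low to high, held in 9 of 10 members. TAM-KO replicates 2 and 3 were both above the other 6 libraries in 10 of 10 members, and all 4 TAM-KO libraries were above TAM-WT replicates 2, 3 and 4 in 10 of 10. After removal of the group means, the log2(CPM + 1) values of the 8 members with a mean CPM of at least 5 had a median pairwise Pearson r of 0.977 and a lowest of 0.928 over 7 libraries, a description of points that share their libraries.

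The genes outside the family whose values deviated most like the mean of these 8 members, over the same 7 libraries and among 12452 genes, were Igtp (r = 0.997), Psmb9 (r = 0.995), Aif1 (r = 0.992), Igflr1 (r = 0.991) and H2-DMb1 (r = 0.990). Igtp encodes an immunity-related GTPase (IRG), Psmb9 a subunit of the immunoproteasome, Aif1 the macrophage protein IBA1, and H2-DMb1 a chain of the MHC class II peptide exchange factor. Igtp and Psmb9 also rose in TAM-KO, both fitted on 7 libraries (log2 fold change 1.99, edgeR adjusted p = 0.0269, and 1.11, edgeR adjusted p = 0.0285). The others had log2 fold changes of 0.66, -0.10 and 0.43, none of which passed (edgeR adjusted p = 0.0649 for Aif1, 0.873 for Igflr1 and 0.271 for H2-DMb1).

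Genes beside the clusters were then compared with the members. Of 12 flanking protein-coding genes, 3 on either side of each cluster, 11 were tested and 1 passed. This is near the share over all genes, of which 1218 of 12412 passed in either direction. Zfp951, a zinc finger gene before the cluster on chromosome 5, had a mean of 1.85 ± 0.24 FPKM in TAM-WT and 3.10 ± 0.42 in TAM-KO (SD, n = 4), with a log2 fold change of 0.65 ± 0.13 (SE, edgeR adjusted p = 0.0238). The other 10 tested neighbours, Unc5c, Pdlim5, Kyat3, Gtf2b and Pkn2 on chromosome 3 and Zfp33b, Abcg3, Lrrc8b, Lrrc8c and Lrrc8d on chromosome 5, had log2 fold changes from -0.23 to 0.27. Bmpr1b, at a mean of 0.0075 FPKM in TAM-WT, was not tested. Gbp11 was not analysed here.

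Upstream of the GBPs, Ifng, the gene of interferon gamma itself, which lymphocytes rather than macrophages mainly make, had 2.49, 0, 0.12 and 0 FPKM in TAM-WT and 3.59, 7.77, 6.11 and 2.15 in TAM-KO. TAM-WT replicate 1 was the only TAM-WT library above 0.12 and exceeded TAM-KO replicate 4, and the log2 fold change of 2.94 ± 1.04 (SE, 7 libraries) did not pass (edgeR adjusted p = 0.102). Irf1, a transcription factor that binds the ISRE and drives GBP transcription, had 38.7, 23.6, 34.2 and 43.3 FPKM in TAM-WT and 58.1, 68.3, 79.0 and 52.9 in TAM-KO. It rose without overlap by 0.82 ± 0.21 on the log2 scale (SE, 7 libraries, edgeR adjusted p = 0.0488). The TAM-KO replicate 1 values of Ifng and Irf1 came from the authors' list of differentially expressed genes. TAM-WT replicate 4, not replicate 1, was the highest TAM-WT library for Irf1, unlike in the GBPs.

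Of 14 genes of interferon gamma signalling, 5 passed as higher and 0 as lower in TAM-KO, with a median log2 fold change of 0.57. Over all 12412 genes tested, 568 (4.58%) passed as higher and 650 as lower. Beside Irf1 the 5 included Socs1, the feedback inhibitor of JAK kinases (1.45 ± 0.34 SE, 7 libraries, edgeR adjusted p = 0.0393). Also among them were Nlrc5, the transactivator of MHC class I (1.37 ± 0.29 SE, edgeR adjusted p = 0.0265) and Stat2, a subunit of the ISRE-binding complex ISGF3 (0.85 ± 0.22 SE, edgeR adjusted p = 0.0442). The receptor genes Ifngr1 and Ifngr2 had log2 fold changes of -0.06 and 0.08, and Jak1 and Jak2 of -0.16 and 0.20, none of which passed.

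**Figure D4:**
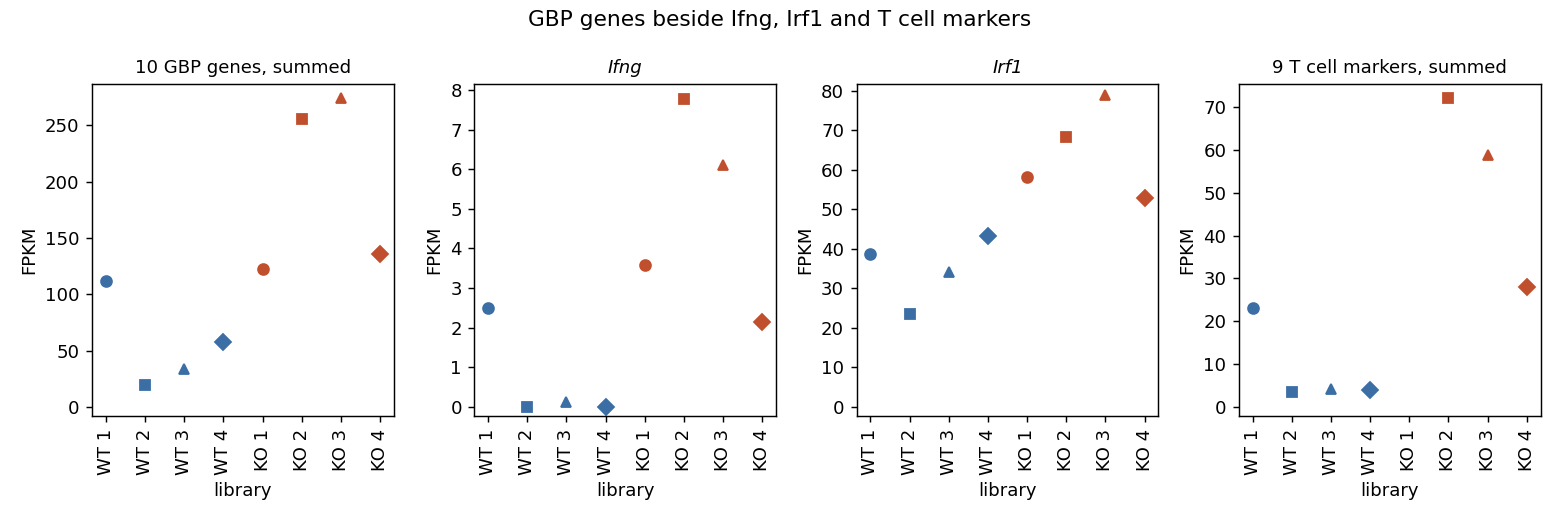
FPKM by library (linear axes) of the 10 GBP genes summed, of Ifng, of Irf1 and of 9 T cell markers summed, with TAM-WT in blue and TAM-KO in orange; the marker sum is missing for TAM-KO replicate 1, whose table lacks Cd4. TAM-WT replicate 1 stands above the other TAM-WT libraries in the GBP sum (112), in Ifng (2.49) and in the T cell markers (23.2), but not in Irf1.

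In the summed T cell and NK cell markers, TAM-WT replicate 1 was the highest TAM-WT library, as in the GBPs. The B cell sum (7.19 FPKM, at most 4.8 in the others) had this too. So did the dendritic cell (23.0, at most 17.1) and neutrophil sums (9.31, at most 8.97). The macrophage, melanoma, endothelial and fibroblast sums did not. The 9 T cell markers with a value summed to 23.2 FPKM in TAM-WT replicate 1, from 3.57 to 4.09 in the other 3 TAM-WT libraries, and from 28.1 to 72.1 in TAM-KO replicates 2 to 4. Of these 9, 2 passed as higher in TAM-KO with edgeR (Thy1 and Cd2), 4 with DESeq2 and 8 with voom, against 4.58%, 8.71% and 14.7% of all genes. The list median was 2.67 on the log2 scale. Cd3e, which encodes a subunit of the T cell receptor complex, had 2.33, 0.10, 0.05 and 0.10 FPKM in TAM-WT and 3.02, 7.26, 5.10 and 2.42 in TAM-KO. Cd4 did not rise, with means of 2.01 ± 0.65 FPKM in TAM-WT (SD, n = 4) and 1.77 ± 0.31 in TAM-KO (SD, n = 3). Its log2 fold change was -0.29 (edgeR adjusted p = 0.507). The 8 NK cell markers summed to 14.3 FPKM in TAM-WT replicate 1, from 0.87 to 3.79 in the other TAM-WT libraries and from 11.4 to 45.6 in TAM-KO replicates 2 to 4, with 1 of 5 tested (Eomes) higher by edgeR, 1 by DESeq2 and 4 by voom. Outside TAM-KO replicate 1, 4 of the 8 stayed under 1 FPKM. Ncr1 and Klrb1c were near 0, with means of 0.025 and 0.155 FPKM in TAM-WT and 0.085 and 0.087 in TAM-KO. Gzmb alone had 6.55 FPKM in TAM-WT replicate 1 and 24.0 in TAM-KO replicate 2, so the sum does not single out NK cells. GBPs are also expressed in lymphocytes, and the part of these cells in the GBP values was not tested. In bulk RNA, more cells of a type and more RNA per cell cannot be told apart. Without TAM-WT replicate 1 and TAM-KO replicate 1 together, a fit chosen after seeing the data, all 10 GBP genes passed, against 3.05% of all genes, with a median log2 fold change of 2.63.

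Other marker lists gave the following. Of all 12412 genes, 568, 1081 and 1830 passed as higher with edgeR, DESeq2 and voom, and 650, 1172 and 1795 as lower. The 10 macrophage markers summed to between 13110 and 15450 FPKM in TAM-WT and between 10220 and 12900 in TAM-KO replicates 2 to 4, and 0 passed with edgeR, the lowest adjusted p being 0.0548 for Lyz2, with 4 at an unadjusted p of at most 0.05; DESeq2 called 1 higher and 3 lower, and voom 1 higher and 4 lower. Melanoma markers summed to between 1958 and 4382 FPKM in TAM-WT and between 3817 and 5057 in TAM-KO replicates 2 to 4, with 1 of 7 higher (Sox10) by edgeR, 5 by DESeq2 and 7 by voom, so RNA of melanocyte-lineage genes was present in every library. Of the tested markers, 1 of 8 for dendritic cells (Xcr1) and 1 of 3 for neutrophils (S100a8) were higher, and 0 of 2 for B cells, 0 of 4 for endothelial cells and 0 of 4 for fibroblasts passed with edgeR, with 1, 1 and 0 at an unadjusted p of at most 0.05. DESeq2 called 1 endothelial marker and voom 1 B cell marker, each as higher. TAM-WT replicate 2, the lowest GBP library, had the highest melanoma sum of TAM-WT. The part of these in the GBP result was not tested. Colec11 itself had from 0 to 4 expected counts in each library, too few to check the genotype labels.

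The IRGs, the other family of interferon gamma-induced GTPases that act on pathogen vacuoles together with the GBPs, had the median nearest to theirs of the 8 pathway lists. Of 10 IRG genes, 6 passed as higher, against 4.58% of all genes, and 0 as lower in TAM-KO, with a median log2 fold change of 1.62. The largest of those that passed were Tgtp1 (3.42 ± 0.80 SE, edgeR adjusted p = 0.0330), Tgtp2 (2.65 ± 0.65 SE, 7 libraries, edgeR adjusted p = 0.0429), Igtp and Irgm2 (1.61 ± 0.35 SE, edgeR adjusted p = 0.0274). Tgtp1 and Tgtp2 are near-identical copies whose reads can be split. Igtp had 22.2, 5.92, 8.68 and 13.9 FPKM in TAM-WT and 34.1, 60.3, 65.7 and 36.4 in TAM-KO, an order of the libraries that Gbp2, Gbp5, Gbp6 and Gbp7 also had.

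Other interferon-response genes were listed to set the GBPs beside them. Their edgeR counts stand against 4.58% of all genes passing as higher and 650 of 12412 as lower. Of 13 tested genes of the interferon gamma response outside the GTPases, 4 passed as higher (Psmb9, Cxcl10, Tap2 and Psmb10), with a median log2 fold change of 0.64. Cxcl10, a chemokine that attracts T cells, rose by 0.92 ± 0.20 (SE, 7 libraries, edgeR adjusted p = 0.0325). Of 12 genes typical of type I interferon, 1 passed as higher (Ifi44, 2.10 ± 0.52 SE, edgeR adjusted p = 0.0384), with a median of 0.91; DESeq2 called 7 as higher and voom 8 as higher and 1 as lower. A further list held large GTPases, Rnf213 and the atlastins, which are relatives of the GBPs that shape the endoplasmic reticulum. Of its 5 tested genes, 0 passed as higher with edgeR and Atl2 fell by 0.28 ± 0.08 on the log2 scale (SE, edgeR adjusted p = 0.0452), with 3 of the 5 at an unadjusted p of at most 0.05. DESeq2 called 2 of the 5 higher and 1 lower, and voom 3 higher and 1 lower. In edgeR, Rnf213 and Gvin1 had changes of 0.87 and 0.73 that did not pass (edgeR adjusted p = 0.0523 and 0.102). Mx1 and Mx2 were not analysed here.

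Genes whose products act with GBP proteins were listed as well, again beside 568 of 12412 genes passing as higher and 650 as lower with edgeR. Of 10 inflammasome genes, among them Casp1, Casp4, Nlrp3 and Gsdmd, 0 passed in either direction with edgeR, with a median log2 fold change of 0.11 and 5 at an unadjusted p of at most 0.05. DESeq2 called 1 of them lower, and voom 1 higher and 3 lower. Nlrp3, an inflammasome sensor, had 28.8 ± 13.1 FPKM in TAM-WT and 14.9 ± 3.98 in TAM-KO (SD, n = 4), with a log2 fold change of -1.09 ± 0.35 (SE) that did not pass (edgeR adjusted p = 0.0754). Il1b, the gene of interleukin-1 beta, had 102 ± 44.9 and 63.7 ± 23.5 FPKM, with a log2 fold change of -1.08 ± 0.35 (SE, 7 libraries) that did not pass (edgeR adjusted p = 0.0829). Casp4, the sensor of cytosolic lipopolysaccharide that GBPs help to activate, had 16.8 ± 4.14 FPKM in TAM-WT and 23.6 ± 4.40 in TAM-KO (SD, n = 4, edgeR adjusted p = 0.122 on 7 libraries). Of 10 genes of ATG8 conjugation, which directs GBPs to vacuoles, 0 rose and 2 fell, Atg12 by 0.47 ± 0.13 (SE, edgeR adjusted p = 0.0462) and Atg5 by 0.29 ± 0.06 (SE, 7 libraries, edgeR adjusted p = 0.0356). Of 6 genes of prenylation and CAAX processing, 0 rose and 1 fell, Zmpste24 by 0.25 ± 0.06 (SE, edgeR adjusted p = 0.0365).

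**Figure D5:**
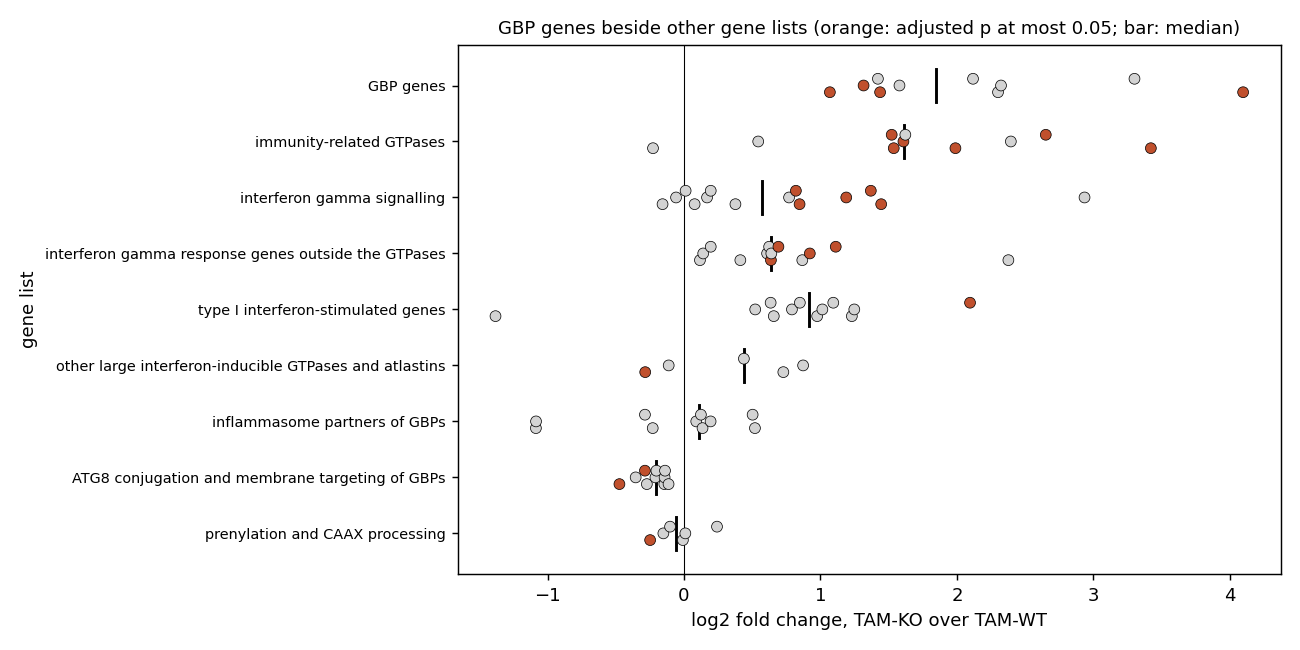
Log2 fold change, TAM-KO over TAM-WT, of each tested gene (points, orange where the edgeR adjusted p was at most 0.05) in the GBP family and 8 other lists, with a black bar at each list's median. The GBP genes and the IRGs have medians of 1.85 and 1.62, and the inflammasome, ATG8 and prenylation lists have medians of 0.11, -0.20 and -0.06.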

How the data were processed

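RNA of CD45+F4/80+ TAMs sorted from B16 melanomas was measured in 4 TAM-WT and 4 TAM-KO mice, and groups and replicate numbers are those of the labels. The study's methods give BGISEQ-500 sequencing, Bowtie2 alignment and RSEM, and the submitters' processing notes name HISAT2 2.0.4, Bowtie2 2.2.5, RSEM 1.2.12 and GRCm38.p6, with no roles. Whether counting used strand is not given in the sources used here. The expected counts were deposited by the authors without normalization; they are RSEM estimates and need not be whole. The FPKM values deposited by the authors are relative to gene length and mapped reads. Deposited TPM values and the authors' log2 ratios, p-values and q-values were not used.

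Reads on genes numbered between 16225362 and 17280267 a library, not counting TAM-KO replicate 1, whose table lacks an unbroken run of genes. Of the 10 members, 4 (Gbp2, Gbp2b, Gbp4 and Gbp6) had no value in it, and their FPKM in that library came from the authors' table of the whole series. That table is a list of 3996 differentially expressed genes. It gave a value for 1188 of the 4214 genes without one, so such values exist only for genes on the authors' list. Rounded expected counts were fitted by edgeR 4.0.16 under R 4.3.3 (TMM, filterByExpr, glmQLFit and glmQLFTest), 12572 genes on 8 libraries and 4214 on 7, with Benjamini-Hochberg adjustment over the 12412 genes that passed the filter. SE is the log2 fold change divided by the square root of F. On simulated counts of 12408 genes it called 100% of the 200 genes that were changed, with 7 false calls. Scarce genes were not among those changed, and every gene was given the same dispersion, the median over genes. The wider spread of single genes was not simulated, so this checks the fit and not its power for the GBP genes. Figures used matplotlib 3.10.9, and identities came from global alignments in Biopython 1.88.

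All 10 members are named. Of each list, the genes that passed are named, at most the 4 of largest change, and Ifng and Irf1 are always named. Ifngr1, Ifngr2, Jak1, Jak2, Casp1, Casp4, Nlrp3, Il1b, Gsdmd, Cd3e, Cd4, Ncr1, Klrb1c, Gzmb, Lyz2, Rnf213 and Gvin1 were added after their values were seen. 1 gene that the rule covers is not reported here, though counts over its list include it. The members and lists were chosen with earlier results of these data known, so counts are set beside the share of all genes and no list was tested. Alternatives were other scalings, DESeq2 1.42.0, limma 3.58.1 (voom and log2 FPKM), other filters and thresholds, a replicate block, TAM-KO replicate 1 filled in, and libraries left out. Comparison of GBP proteins as annotated in RefSeq was not made.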

Additional observations from a re-analysis of the deposited data

Results flagged for a closer look

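Among 20 groups of 4 values, the 10 GBP genes in TAM-WT and in TAM-KO, 1 held a value whose gap to the nearest other value exceeded Dixon's 95% limit, and chance gives about 1 in 20. It was Gbp2b in TAM-WT, where replicate 1 had 0.72 FPKM and the other 3 libraries had 0, 0.08 and 0.11. TAM-WT replicate 1 was also the highest TAM-WT library for the other 9 GBP genes. Beside it, the T cell markers summed to 23.2 FPKM in that library and to at most 4.09 in the other TAM-WT libraries. The summed NK cell, B cell, dendritic cell and neutrophil markers were also highest of TAM-WT there. The part of these markers in the value was not tested.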

How the results depend on the processing

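All 10 GBP genes that were tested had a fitted change toward TAM-KO under every alternative, with log2 fold changes from 0.83 to 6.16; of 188 alternative values of single genes, 122 stayed on their side of the threshold, 38 came to pass and 28 no longer passed. The count of members that passed, 4 (4.58% of all genes passed as higher), was 4 with DESeq2 size factors in edgeR (4.65%) or no filter (3.63%) and 6 with scaling to total reads (7.01%). It was 7 with DESeq2 (8.71% of all genes passed as higher), 10 with voom and sample quality weights (14.7%), 8 with limma on log2(FPKM + 1) (7.38%) and 7 with log2(FPKM + 0.1) (7.07%). It was 2 with at least 10 counts in every sample (4.17%), which removes 2 members. When the authors' list of differentially expressed genes filled those gaps of TAM-KO replicate 1 that it covers, 1 passed (3.89%). This was Gbp10, which passed the filter on low counts through the TAM-KO libraries. The same numbers also had a 2-fold change, save 7 with limma on log2(FPKM + 1). At an adjusted p of at most 0.01, edgeR called 0 members, with 10 at an unadjusted p of at most 0.05. With 1 library left out, the counts ran from 0 to 10, also with the 2-fold criterion, and the median log2 fold change from 1.53 to 2.54. With TAM-WT and TAM-KO replicates 1 both left out, an alternative added after seeing the data, 10 passed (3.05% of all genes passed as higher), 10 also with the 2-fold criterion, and the median was 2.63, against 1.85. The cause of these differences was not tested.

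The log2(FPKM + 0.1) scale moved the median of all genes to 0.11, beside 2.22 for the members. The deviations of same-numbered libraries from their group means had correlations of -0.33, 0.02, -0.23 and 0.26. The labels state no pairing, and these few values cannot settle whether same-numbered samples were paired. With a replicate block 5 members passed (Gbp2, Gbp2b, Gbp4, Gbp6 and Gbp10), against 4.09% of all genes, 5 also with a 2-fold change, and the median was 2.32. Gbp2, Gbp2b, Gbp4 and Gbp6 were fitted on 7 libraries, where TAM-WT replicate 1 stood alone in its block. That library therefore did not inform their change, and their calls are not a result of pairing. Of the members blocked on 8 libraries, Gbp10 alone passed. Over all genes the number passing was 1218, 2253 with DESeq2, 3625 with voom, and from 77 to 2755 with 1 library left out; 46.6% of the 1218 were higher in TAM-KO, against 64.4% with scaling to total reads and 69.2% and 68.4% with limma on log2(FPKM + 1) and log2(FPKM + 0.1). Adding the reads of Gbp6 and Gbp10 moved the log2 ratio of Gbp6 from 2.33 to 2.37. Depth limits Gbp2b and Gbp10, which had at most 27 and 9.11 expected counts in any TAM-WT library.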
